A study of Mus musculus with 12 samples.

Results

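RNA sequencing compared bone marrow progenitors that carried the inv(3) rearrangement with progenitors that did not, in 6 of the series' 12 mouse libraries. All donors carried Mx1-Cre, a Cre recombinase driven by an interferon-responsive promoter that acts in blood cells and in other tissues. The 3 control libraries came from donors with Mx1-Cre alone, and the 3 inv(3) libraries came from Mx1-Cre donors with the inv(3) allele, both on the C57BL/6 strain. CD45.2 donor marrow was mixed with wild-type CD45.1 support marrow and given to CD45.1 recipients irradiated 2 times at 450 cGy. From 4 weeks after transplantation all recipients received 3 doses of pIpC (20 mg/kg), a double-stranded RNA mimic that induces interferon, and marrow was taken 6 months later. The sorted cells were lineage-negative and cKit-positive, and the labels name no selection of CD45.2 cells, so the share of support-derived cells among them is not known. The labels give neither the age nor the sex of any animal, and do not say whether replicates are separate mice. The p-values therefore measure the spread between libraries, estimated over all 12 of the series. The comparison covers 13252 tested autosomal genes, of 23248 autosomal genes listed.

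In human leukemia inv(3) places a GATA2 enhancer beside MECOM, the gene of the zinc-finger transcription factor EVI1, and removes that enhancer from GATA2. EVI1 is normally active in hematopoietic stem cells, where it sustains self-renewal. The lineage-negative, cKit-positive gate holds stem cells together with progenitors of the granulocyte, monocyte, erythroid, megakaryocyte, mast cell and lymphoid lineages.

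The control libraries held 76153040 to 79905476 expected counts and the inv(3) libraries 76593862 to 84215333. Kit, the gate's receptor, stood at 465, 439.8 and 462 CPM in the control libraries and 440.0, 431 and 439 in the inv(3) libraries (CPM, TMM-scaled counts relative to library size), and the groups overlapped. The pan-leukocyte gene Ptprc overlapped as well, at 279, 246 and 251 against 280.1, 261 and 269 CPM. Defining genes of mature T and B cells were close to 0: summed over 3 libraries, Cd3e had 0 counts in control and 2 in inv(3), Ms4a1 had 5 and 1, and Pax5 had 2 and 1. The first principal component of the 6 libraries took 78.2% of their variance, and on it control libraries lay between -52.1 and -51.0 and inv(3) libraries between 39.9 and 69.2. Replicate 2 of inv(3) stood apart from the other 2 (69.2 on the first component and 32.7 on the second, against 39.9 and -30.3 for replicate 1 and 45.2 and -12.2 for replicate 3). Xist, the RNA of the silenced X chromosome, was 24.0 to 39.9 CPM in control and 1794 to 2095 in inv(3), and Y-linked counts were 20343 to 20418 against 4 to 8. This sex-linked difference cannot be told apart from the allele in this comparison. For that reason only autosomal genes are described, and the limit holds for them as well.

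Of the 13252 autosomal genes tested, 2436 (18.4%) were called higher and 2666 (20.1%) lower in inv(3), so that 5102 (38.5%) passed edgeR's quasi-likelihood test with an adjusted p under 0.05. At a change of at least 2-fold, 490 genes (3.7%) were higher and 1144 (8.63%) lower, and the 5th and 95th percentiles of the log2 change over all tested autosomal genes were -1.80 and 0.86. The median was 0.00, and the shares and medians of gene lists can be read against these values. In 6850 of the 13252 genes no inv(3) library overlapped a control library, and 5024 of those were called, so a lack of overlap is common. Changes are given from here on the log2 scale, inv(3) minus control, with the SE of the fit. By chromosome, the share of genes called ran from 32.5% on chromosome 12 to 44.0% on chromosome 6. With upper-quartile scaling the split of calls moved from 2436 higher and 2666 lower to 1981 and 3264.

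**Figure D1:**
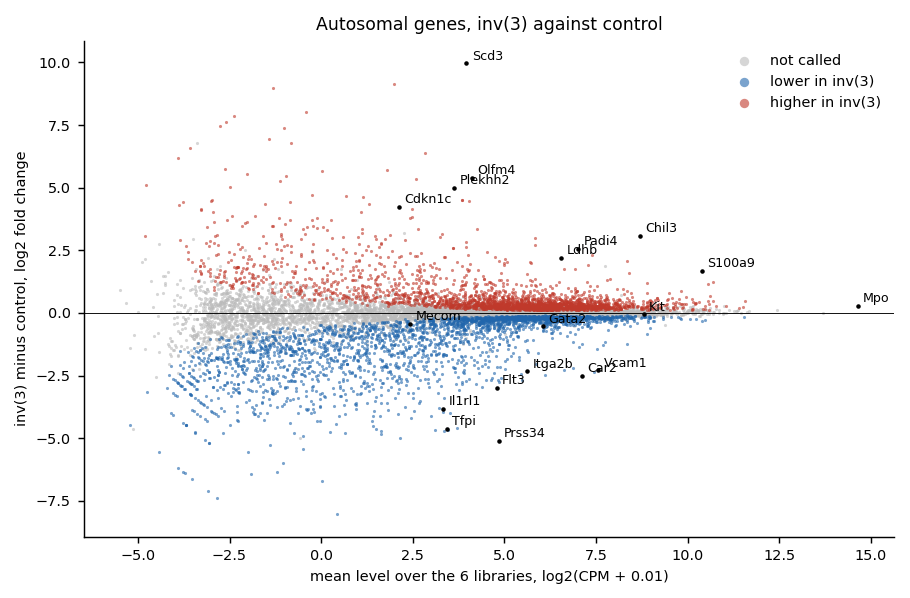
Each point is 1 of 13252 autosomal genes, with the mean level over the 6 libraries on the x axis (log2 of CPM + 0.01) and the log2 fold change of inv(3) against control on the y axis; red genes were called higher and blue genes lower by edgeR. Prss34 (-5.11) and Tfpi (-4.63) are among the lowest labelled points, Scd3 (9.97, from 7 control counts) is the highest, and Kit lies at the centre (-0.06).

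Mecom, the gene that inv(3) rearranges in the human disease, did not pass the test on its count. It had 419, 523 and 517 expected counts in the control libraries and 446, 265 and 344 in the inv(3) libraries, and the groups overlapped. Its log2 change was -0.42 ± 0.20 (SE, adjusted p = 0.11). Its TPM, the authors' length-corrected transcript level, was 2.7, 3.15 and 3.09 in control and 2.27, 1.35 and 1.61 in inv(3). Those values did not overlap, and TPM was not tested. The groups were also apart in the abundance-weighted length that RSEM assigns to the gene from its 2 listed transcripts. That length was 3686, 3769 and 3739 bases in control and 4394, 4370 and 4384 bases in inv(3). The difference of 651 bases between the means is far above the SD of 42.1 in control and 12.1 in inv(3), and an exact two-sided permutation test gave p = 0.1, the smallest 3 libraries against 3 can give. The same shift was present between libraries that share none with these, from 3873 ± 71.3 bases (SD, n = 3) in Sf3b1 K700E to 4402 ± 24.0 in the double group, which carries Sf3b1 K700E (a splicing factor mutation) and inv(3) (exact permutation p = 0.1). A longer value means that RSEM gave more of the gene's reads to the longer transcript model. TPM overlapped between Sf3b1 K700E (3.49, 5.33 and 3.58) and the double group (4.14, 3.57 and 4.51).

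**Figure D2:**
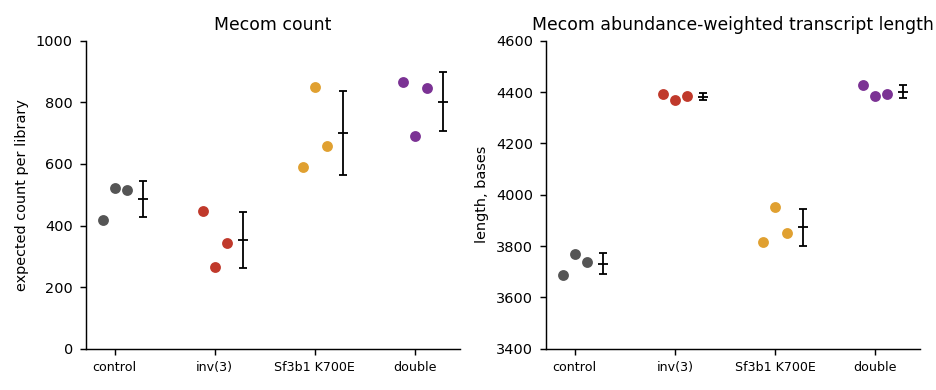
Left, Mecom expected counts in each library of the 4 groups; right, the abundance-weighted length of Mecom in bases, on an axis that does not start at 0. Points are libraries and black bars are mean and SD (n = 3), and all 6 libraries with the inv(3) allele lie at 4370 bases or above while their counts overlap those of the others.

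Gata2, the donor of the enhancer in the human rearrangement, is a regulator of stem, mast and megakaryocyte cells. The structure of the mouse allele was not examined. Gata2 stood at 63.2, 83.4 and 87.8 CPM in the control libraries and 52.1, 54.7 and 54.7 in the inv(3) libraries. The groups did not overlap, and the log2 change was -0.54 ± 0.17 (SE, adjusted p = 0.029), and this call did not survive dropping the low-count filter or leaving out any 1 of 5 libraries (control replicates 2 and 3 and each inv(3) replicate, adjusted p up to 0.11). Rpn1, the neighbour of the enhancer in the human rearrangement, overlapped between groups (-0.06, adjusted p = 0.4). Of 26 tested genes reported elsewhere as partners or targets of EVI1, 8 rose and 5 fell, with a median of -0.05. Among them Fbp1, a gluconeogenic phosphatase, was at 23.0, 20.2 and 20.2 CPM in the control libraries and 68.2, 90.8 and 94.8 in the inv(3) libraries and Gadd45g, a stress-response gene, changed by -1.30 ± 0.23 (SE, adjusted p = 0.00081).

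Several transcription factors of neutrophil development rose in inv(3), and several of the erythroid, megakaryocytic and monocyte branches fell. Spi1, which encodes PU.1, was at 111, 131 and 131 CPM in the control libraries and 171, 203 and 166 in the inv(3) libraries. No inv(3) library overlapped a control library, and the log2 change was 0.53 ± 0.10 (SE, adjusted p = 0.0015). Cebpe, the factor of granulocyte maturation, was at 69.1, 91.3 and 86.4 CPM in control and 147, 216 and 127 in inv(3), a change of 0.99 ± 0.19 (SE, adjusted p = 0.0016), with replicate 2 highest. Gfi1, a repressor that favours granulocytes over monocytes, rose by 0.40 ± 0.09 (SE, adjusted p = 0.005) and Cebpd by 1.00 ± 0.25 (SE, adjusted p = 0.008). Cebpa, which starts the granulocyte program, moved the other way by a small amount, from 131, 136 and 133 CPM to 118, 108 and 105 (-0.27 ± 0.06 SE, adjusted p = 0.0027).

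The factors that fell span the neighbouring lineages. Tal1, required for erythroid and megakaryocytic cells, was at 72.1, 69.9 and 74.9 CPM in the control libraries and 24.6, 24.9 and 28.2 in the inv(3) libraries, and every inv(3) value was under every control value (-1.48 ± 0.12 SE, adjusted p = 6.5e-06). Gfi1b, the paralog of Gfi1 that acts in those same lineages, changed by -1.72 ± 0.27 (SE, adjusted p = 0.00054), while Gfi1 itself rose. Irf8, the factor of monocytes and dendritic cells, was at 179.9, 192 and 195 CPM in control and 97.7, 50.8 and 73.7 in inv(3), lowest in replicate 2 (-1.35 ± 0.30 SE, adjusted p = 0.0049). Klf4, a monocyte factor, changed by -2.10 ± 0.41 (SE, adjusted p = 0.002). In the list of C/EBP, PU.1, GFI1 and IRF factors, 6 of 19 tested members rose and 7 fell. In the list of GATA, TAL1, ETS and RUNX factors, 6 of 22 rose and 6 fell, and Myb (0.08, adjusted p = 0.27) was not called. Etv6 rose by 0.27 ± 0.04 (SE, adjusted p = 0.00053), and Runx2, a factor of plasmacytoid dendritic cells, changed by -0.59 ± 0.06 (SE, adjusted p = 1.5e-05).

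Late neutrophil genes, those of secondary granules and maturing cells, rose in 19 of 32 tested cases and fell in 2, with a median log2 change of 0.80. A bulk library cannot tell more cells of a type from more RNA per cell, here and in every list that follows. S100a9, a subunit of calprotectin, was at 3664, 3171 and 2399.6 TPM (the authors' length-corrected transcript level) in control and 9047, 10251 and 8571 in inv(3), so its level rose without overlap (1.69 ± 0.24 SE on the count scale, adjusted p = 0.00031). Its partner S100a8 went from 8728, 7587 and 6132 TPM to 16990.2, 17262 and 15559.8 (1.24 ± 0.20 SE, adjusted p = 0.0007), and the mean over both groups placed it among the 12 most abundant autosomal genes. Chil3, a chitinase-like lectin of myeloid precursors, was at 116, 82.8 and 64.0 CPM in the control libraries and 1009.8, 536 and 676 in the inv(3) libraries (3.08 ± 0.26 SE, adjusted p = 9e-06), with replicate 1 highest. Olfm4, a glycoprotein of specific granules, was under 1 CPM in each control library and rose by 5.39 ± 0.45 (SE, adjusted p = 8.3e-06). Padi4, the histone-citrullinating enzyme, was at 32.4, 39.1 and 41.1 CPM in the control libraries and 199, 256 and 206 in the inv(3) libraries.

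Granule genes with a similar role did not all move alike. The cathelicidin Camp and the granule protein Ngp rose by 1.74 ± 0.34 (SE, adjusted p = 0.0024) and 2.31 ± 0.48 (SE, adjusted p = 0.0035), each highest in replicate 2 of inv(3). Lcn2, an iron-scavenging lipocalin, rose by 2.04 ± 0.18 (SE, adjusted p = 1.1e-05), and Ncf1, a subunit of the NADPH oxidase, by 0.61 ± 0.11 (SE, adjusted p = 0.00091). Ltf, lactoferrin, was at 1.06, 0.857 and 0.887 CPM against 5.38, 16.6 and 3.66. Its groups did not overlap, yet its change of 3.19 did not pass (adjusted p = 0.093). Mmp8, the neutrophil collagenase, went the opposite way (-4.93 ± 1.41 SE, adjusted p = 0.017) at low counts, and that call ended without inv(3) replicate 2 (adjusted p = 0.063). The terminal genes Retnlg and Fpr1 were under 1 CPM in all 6 libraries.

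Primary granule genes are switched on earlier in the lineage. Of 18 tested, 7 rose and 2 fell, with a median of 0.24. Mpo, the autosomal gene with the highest mean TPM, was at 16103, 17423 and 16876 TPM in control and 19359, 18315 and 18634 in inv(3) (0.27 ± 0.07 SE on the count scale, adjusted p = 0.011). Elane, neutrophil elastase, overlapped between the groups (0.11, adjusted p = 0.37). Fcnb rose by 1.20 ± 0.17 (SE, adjusted p = 0.0003) and Prss57 by 0.64 ± 0.08 (SE, adjusted p = 6.3e-05). Cst7, a cystatin that inhibits lysosomal cathepsins, fell within this same list, from 312, 292 and 264 CPM to 63.7, 40.5 and 66.4 (-2.35 ± 0.17 SE, adjusted p = 2.6e-06).

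Mast cell and basophil genes fell in 10 of 19 tested cases and rose in 3, with a median of -0.64. Summed over the list, they took 833 to 854 CPM in control and 327 to 388 in inv(3). Cpa3, the mast cell carboxypeptidase, was at 76.7, 72.4 and 81.0 CPM in the control libraries and 17.1, 8.46 and 10.7 in the inv(3) libraries (-2.67 ± 0.19 SE, adjusted p = 3e-06). Hdc, which makes histamine, changed by -1.43 ± 0.11 (SE, adjusted p = 3.4e-06), and Csf2rb, the shared receptor chain for IL-3, IL-5 and GM-CSF, by -1.15 ± 0.10 (SE, adjusted p = 1.1e-05). The 3 members that rose were Mitf, Gzmb and Cd200r3. Gzmb, a granzyme, rose by 1.69 ± 0.19 (SE, adjusted p = 4.9e-05), and Cd200r3, an activating receptor of basophils and mast cells, went from 0.603, 0.529 and 0.665 CPM to 6.14, 13.7 and 11.8 (4.13 ± 0.31 SE, adjusted p = 2.9e-06), so the list did not move as 1 block. Eosinophil genes fell in 7 of 11 and rose in 2. Prg2, the major basic protein, was at 524, 415 and 436 CPM in the control libraries and 191, 223 and 168 in the inv(3) libraries (-1.24 ± 0.13 SE, adjusted p = 2.5e-05), whereas Siglecf, a surface lectin of eosinophils, rose by 1.01 ± 0.22 (SE, adjusted p = 0.0038).

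Promoter sequences are shown for the 3 mast cell genes that fell and the 3 late neutrophil genes that rose with the smallest p-values, because the 2 lists moved in opposite directions. The windows run from 250 bases before to 50 bases after a RefSeq start site (GRCm38.p6), 5′ to 3′ on the gene's strand, and where the table holds several windows, as for Il1rl1 (2), the first is given. They lie at chr1:40429320-40429619 (plus strand) for Il1rl1, chr19:11623670-11623969 (minus) for Ms4a2, chr3:20242132-20242431 (minus) for Cpa3, chr4:140774154-140774453 (minus) for Padi4, chr17:56121897-56122196 (minus) for Lrg1 and chr14:80000052-80000351 (plus) for Olfm4. Capitals mark any match, on either strand, to 5 motifs. GATA factors are known for AGATAA, C/EBP factors for TTGCNNAA, the factor PU.1 for GAGGAAGT, and the first and second zinc-finger domains of EVI1 for GACAAGATA and for GAAGATGAG. AGATAA and GACAAGATA share the letters AGATA and can overlap.
Il1rl1: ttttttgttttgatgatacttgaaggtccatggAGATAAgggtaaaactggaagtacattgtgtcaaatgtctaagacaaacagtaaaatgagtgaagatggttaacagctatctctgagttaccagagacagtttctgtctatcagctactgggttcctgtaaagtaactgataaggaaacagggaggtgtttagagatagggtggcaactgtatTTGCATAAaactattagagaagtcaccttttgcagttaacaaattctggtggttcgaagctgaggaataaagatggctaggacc
Ms4a2: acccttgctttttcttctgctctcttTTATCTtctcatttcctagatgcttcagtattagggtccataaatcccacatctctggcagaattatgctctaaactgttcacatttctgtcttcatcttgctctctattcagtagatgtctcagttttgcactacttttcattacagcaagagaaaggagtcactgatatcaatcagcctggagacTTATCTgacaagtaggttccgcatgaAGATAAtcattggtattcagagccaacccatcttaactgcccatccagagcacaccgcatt
Cpa3: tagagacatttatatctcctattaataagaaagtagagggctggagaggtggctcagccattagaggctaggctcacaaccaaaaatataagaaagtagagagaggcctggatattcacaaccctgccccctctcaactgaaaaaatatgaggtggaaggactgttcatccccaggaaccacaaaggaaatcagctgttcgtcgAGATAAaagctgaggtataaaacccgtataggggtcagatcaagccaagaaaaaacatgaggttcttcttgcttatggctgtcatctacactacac
Padi4: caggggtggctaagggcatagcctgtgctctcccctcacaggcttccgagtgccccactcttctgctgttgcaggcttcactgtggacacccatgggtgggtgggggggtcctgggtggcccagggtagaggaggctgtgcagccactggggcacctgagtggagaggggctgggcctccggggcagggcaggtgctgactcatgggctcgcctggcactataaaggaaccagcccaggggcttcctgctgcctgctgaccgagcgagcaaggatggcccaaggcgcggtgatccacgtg
Lrg1: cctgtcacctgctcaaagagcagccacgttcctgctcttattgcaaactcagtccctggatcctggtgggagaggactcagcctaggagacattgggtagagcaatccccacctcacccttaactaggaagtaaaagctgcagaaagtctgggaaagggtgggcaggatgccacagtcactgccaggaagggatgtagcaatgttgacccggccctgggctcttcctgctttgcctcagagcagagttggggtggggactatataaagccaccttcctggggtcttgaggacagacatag
Olfm4: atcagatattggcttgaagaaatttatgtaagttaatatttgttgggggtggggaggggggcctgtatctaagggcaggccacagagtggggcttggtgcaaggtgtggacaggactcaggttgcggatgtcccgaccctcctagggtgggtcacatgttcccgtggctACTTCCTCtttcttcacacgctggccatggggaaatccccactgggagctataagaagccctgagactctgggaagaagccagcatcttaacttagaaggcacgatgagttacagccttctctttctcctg

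The 3 mast cell windows hold AGATAA, with 3 matches in Ms4a2 and 1 each in Il1rl1 and Cpa3, and Il1rl1 also holds 1 match to TTGCNNAA. Of the neutrophil windows, Olfm4 holds 1 match to the PU.1 letters and the other 2 hold none of the 5 motifs. Windows were found for 10012 of the 13252 tested autosomal genes, 12695 windows in all, and 6.62% of them hold AGATAA, 8.81% TTGCNNAA and 3.29% GAGGAAGT. Over all 31396 autosomal windows, of tested and untested genes, the shares were 11.2%, 10.9% and 3.25%. A share can therefore lie above the first background and not above the second. Among the 1026 windows of genes lowered at least 2-fold, AGATAA was in 10.9%, TTGCNNAA in 9.65% and GAGGAAGT in 3.9%. Among the 449 windows of genes raised at least 2-fold, the shares were 8.91%, 14.9% and 4.68%. The longer EVI1 motif GACAAGATA was in 2 of the 1026 windows, in 0 of the 449 and in 8 of the 12695, and GAAGATGAG in 5, 2 and 38. In the mast cell and basophil list 8 of 23 windows hold AGATAA, in the erythroid list 8 of 26 and in the late neutrophil list 6 of 25. In the same order TTGCNNAA was in 8, 2 and 8 windows and GAGGAAGT in 1, 0 and 4. A match is a description of letters in the window and says nothing of binding.

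Erythroid genes fell in 26 of 29 tested cases and rose in 1, the highest share called lower of the 43 lists, with a median of -1.72. Globin genes, of the same lineage, went the other way at low levels: of 6 tested (11 listed), 4 rose and 0 fell, and their summed level was 14.5 to 20.0 CPM in control and 42.8 to 91.9 in inv(3). The 4 are Hbb-bt and Hbb-b2, whose reads cannot be separated, Hba-a2, with 0 counts in control, and Hbb-b1, whose call ended under limma-voom and without control replicate 1, control replicate 2 or inv(3) replicate 3 (adjusted p up to 0.084). Hba-a1 (-0.26, adjusted p = 0.39) and Hbb-bs (-2.21, adjusted p = 0.29) had negative values and were not called. Car2, a carbonic anhydrase, was at 233, 227 and 243 CPM in the control libraries and 26.4, 40.4 and 56.0 in the inv(3) libraries (-2.52 ± 0.25 SE, adjusted p = 2.6e-05). Ermap, a red cell membrane protein, was at 78.5, 70.1 and 73.7 against 2.81, 18.9 and 19.5 CPM, and in Ermap and Ank1 inv(3) replicate 1 was the lowest library. Nfe2, a factor of erythroid and megakaryocytic cells, was the member that rose (0.37 ± 0.05 SE, adjusted p = 0.00016). Among 23 heme and iron genes 10 fell and 4 rose. Alas1, the general enzyme that starts heme synthesis, rose by 0.55 ± 0.09 (SE, adjusted p = 0.00042), while Cpox and Steap3, a later step of the pathway and an iron reductase, changed by -0.55 ± 0.05 (SE, adjusted p = 9.2e-06) and -0.95 ± 0.08 (SE, adjusted p = 7.7e-06).

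Megakaryocyte and platelet genes fell in 17 of 25 tested cases and rose in 3, with a median of -1.97. Itga2b, the integrin CD41, was at 68.8, 85.1 and 92.8 CPM in the control libraries and 20.2, 14.0 and 15.0 in the inv(3) libraries and did not overlap. Its partner Itgb3 changed by -1.97 ± 0.30 (SE, adjusted p = 0.00044). Plek, a substrate of protein kinase C in platelets and leukocytes, changed by -2.03 ± 0.15 (SE, adjusted p = 3.4e-06). Fli1, an ETS factor of megakaryocytes, was among those that rose (0.22 ± 0.06 SE, adjusted p = 0.011).

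Stem cell genes fell in 23 of 34 tested cases and rose in 4, with a median of -1.58. Gng11, a G-protein subunit, was at 6.16, 5.34 and 4.83 CPM in control and 0.315, 0.0688 and 0.271 in inv(3). Hlf, a factor that marks stem cells, changed by -2.68 ± 0.29 (SE, adjusted p = 4.1e-05) and Meis1, a cofactor of HOX proteins, by -2.12 ± 0.27 (SE, adjusted p = 0.00012). Cd34, a surface marker of progenitors, was at 280.1, 290.4 and 316 CPM in the control libraries and 153, 88.0 and 150.1 in the inv(3) libraries (-1.18 ± 0.19 SE, adjusted p = 0.00064). Other members rose. Cdkn1c, which encodes the inhibitor p57, was at 0.472, 0.353 and 0.480 CPM against 4.70, 14.2 and 5.99 (4.25 ± 0.40 SE, adjusted p = 1.5e-05), and Txnip, a regulator of glucose uptake, changed by 0.46 ± 0.13 (SE, adjusted p = 0.016), a call that ended without inv(3) replicate 3 (adjusted p = 0.051). Ly6a, the Sca-1 antigen, also rose, from 3.39, 3.39 and 3.60 to 14.0, 5.24 and 8.31 CPM (1.41 ± 0.29 SE, adjusted p = 0.0031).

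Of 29 autosomal Hox, Meis and Pbx genes listed, 21 were tested, 11 fell and 2 rose. Hoxa9, a driver of progenitor self-renewal, was at 23.1, 24.2 and 27.6 CPM in control and 6.97, 0.867 and 3.24 in inv(3), so the lowest and highest inv(3) libraries lay far apart while both were under control (-2.75 ± 0.50 SE, adjusted p = 0.0013). Pbx3, a cofactor of HOX proteins, fell (-2.15 ± 0.15 SE, adjusted p = 1.5e-06), and its relatives Pbx2 (0.29 ± 0.04 SE, adjusted p = 5.9e-05) and Pknox1 (0.22 ± 0.06 SE, adjusted p = 0.0093) were the members that rose. Lymphoid-primed progenitor genes fell in 11 of 17 and rose in 0. Flt3, the receptor of lymphoid-primed progenitors, was at 41.4, 49.7 and 56.6 CPM in the control libraries and 7.81, 5.06 and 5.80 in the inv(3) libraries. Dntt, the enzyme that adds bases during receptor gene assembly, changed by -2.97 ± 0.59 (SE, adjusted p = 0.0024) and Rag2, of the recombinase itself, by -3.22 ± 0.43 (SE, adjusted p = 0.00015). Tcf4 (-1.02 ± 0.14 SE, adjusted p = 0.00023) and Bcl11a (-0.43 ± 0.06 SE, adjusted p = 0.00011), factors of the same stage, fell less.

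Of 23 monocyte genes 12 were lower (52.2%, against 20.1% of all tested autosomal genes). The 4 that were higher (17.4%) are near the share of all genes (18.4%). Csf1r, the receptor for M-CSF, was at 92.5, 88.9 and 94.8 CPM in the control libraries and 40.2, 13.8 and 35.9 in the inv(3) libraries, lowest in replicate 2 (-1.62 ± 0.39 SE, adjusted p = 0.008). Ccr2, which guides monocytes out of marrow, changed by -1.56 ± 0.11 (SE, adjusted p = 2.1e-06). In the other direction Cd68, a lysosomal glycoprotein, was at 23.3, 26.4 and 25.1 CPM in control and 80.3, 73.5 and 68.7 in inv(3) (1.57 ± 0.11 SE, adjusted p = 2.6e-06). Among 20 macrophage genes 13 fell and 2 rose. Vcam1, an adhesion molecule of marrow macrophages and stroma, went from 384, 285 and 268 CPM to 74.7, 44.2 and 72.6. The complement gene C1qa, a defining macrophage marker, overlapped between groups (-1.06, adjusted p = 0.073). With limma-voom, or without 1 of control replicates 2 and 3 and inv(3) replicates 2 and 3, 6 to 9 macrophage genes were called in either direction.

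Antigen-presentation genes of class I and class II are given apart. Of 13 tested class I genes, 5 rose and 0 fell: H2-K1 and H2-D1, the classical heavy chains, rose by 0.37 ± 0.07 (SE, adjusted p = 0.0012) and 0.41 ± 0.07 (SE, adjusted p = 0.00044), and their light chain B2m by 0.35 ± 0.09 (SE, adjusted p = 0.0093). Of 12 class II genes, 5 fell and 0 rose. H2-DMa, which loads peptides, was at 51.7, 56.2 and 60.3 CPM in the control libraries and 21.7, 12.5 and 16.8 in the inv(3) libraries (-1.72 ± 0.19 SE, adjusted p = 5.2e-05). H2-Ab1, a class II heavy chain, was at 47.5, 47.4 and 55.2 CPM in control and 16.4, 54.3 and 17.2 in inv(3). Replicate 2 was within the control range and replicates 1 and 3 were under every control library, and the change of -0.77 did not pass (adjusted p = 0.21). H2-Aa, H2-Eb1 and Cd74 were likewise highest in replicate 2 among the inv(3) libraries, as were the dendritic cell genes Xcr1 (1.98, 7.98 and 1.81 CPM in inv(3)) and Clec9a (2.06, 7.15 and 2.34 CPM). Without inv(3) replicate 2, 8 of 12 class II genes were called lower and 1 higher. In the dendritic cell list 8 of 16 fell and 1 rose, with Zbtb46, a factor of classical dendritic cells, at -1.87 ± 0.36 (SE, adjusted p = 0.0017). That count went to 5 called without control replicate 3 or without inv(3) replicate 1.

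**Figure D3:**
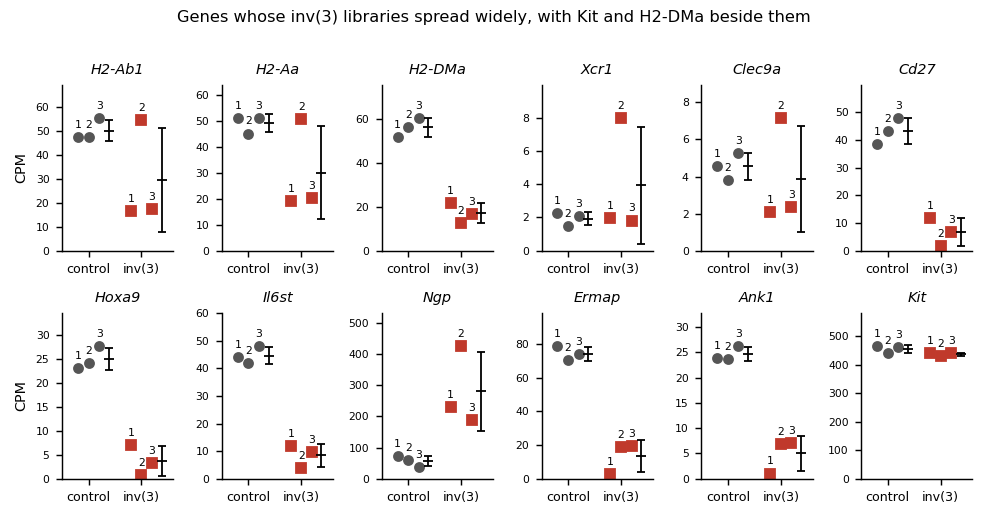
CPM of 12 genes in each library, control as circles and inv(3) as squares, with the replicate number above each point and mean and SD (n = 3) beside each group; each axis starts at 0. For H2-Ab1, H2-Aa, Xcr1 and Clec9a replicate 2 of inv(3) is far above replicates 1 and 3, for Cd27, Hoxa9 and Il6st it is the lowest, and for Ermap and Ank1 replicate 1 is lowest.

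Replicate 2 accounts for most departures of a single library. Among 9446 autosomal genes with a mean of at least 5 CPM in inv(3), replicate 2 was at least 2-fold above both other libraries in 12 genes and at least 2-fold below both in 49. The counts were 4 and 16 for replicate 1 and 0 and 1 for replicate 3, and no control library exceeded 1 above or 3 below among 9570 genes. Replicate 2 was also the most extreme inv(3) library in 1361 of the 2436 genes called higher (55.9%) and in 1635 of the 2666 called lower (61.3%). Without it, 4272 autosomal genes were called, 4051 of them among the original 5102. Some wide spreads lie in genes with near-identical copies, where RSEM's division of reads is uncertain: Eif3j1 was at 33.3, 42.9 and 0.0985 CPM in the control libraries and 38.3, 40.4 and 0.111 in the inv(3) libraries, and Rpl26 was at 797, 87.5 and 777 CPM in inv(3).

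In the list of 34 cytokine receptors 3 rose and 15 fell. Csf3r, the G-CSF receptor, was at 375, 379 and 351 CPM in the control libraries and 540.2, 491 and 516 in the inv(3) libraries (0.49 ± 0.07 SE, adjusted p = 0.00022), and Csf2ra, the specific chain of the GM-CSF receptor, rose by 0.85 ± 0.14 (SE, adjusted p = 0.00082) while its partner Csf2rb fell. Epor, the erythropoietin receptor, changed by -1.69 ± 0.40 (SE, adjusted p = 0.0061) and Il6st, the signalling chain for IL-6 and related cytokines, by -2.40 ± 0.36 (SE, adjusted p = 0.00039). Kit (-0.06, adjusted p = 0.22) and Ifngr1 (0.09, adjusted p = 0.43) were not called. Of 13 chemokine receptors 3 rose and 6 fell. Cxcr2 and Cxcr4, which govern release and retention of neutrophils, rose by 0.60 ± 0.15 (SE, adjusted p = 0.0088) and 0.18 ± 0.05 (SE, adjusted p = 0.011), Ccr1 rose by 1.73 ± 0.21 (SE, adjusted p = 6.8e-05), and Cx3cr1 changed by -1.22 ± 0.30 (SE, adjusted p = 0.0075).

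Among 30 adhesion genes 6 rose and 13 fell, and subunits of 1 family went different ways. Itgam, the alpha chain of the neutrophil integrin Mac-1, was at 202, 184 and 164 CPM in the control libraries and 359, 381 and 331 in the inv(3) libraries (0.96 ± 0.14 SE, adjusted p = 0.00033), while Itgal, the alpha chain of LFA-1, was at 193, 194 and 203 against 88.0, 74.7 and 88.2 CPM (-1.23 ± 0.07 SE, adjusted p = 2.2e-07). Itga6, a laminin receptor subunit reported as raised by EVI1 in leukemia cells, rose by 0.56 ± 0.06 (SE, adjusted p = 2.1e-05), and Itga2, a collagen receptor subunit, changed by -2.97 ± 0.28 (SE, adjusted p = 1.4e-05). The Ms4a family, a cluster of membrane proteins on chromosome 19, divided likewise. Ms4a4c was at 3.67, 3.19 and 3.48 CPM in control and 39.4, 28.9 and 35.8 in inv(3), Ms4a4b rose by 1.61 ± 0.17 (SE, adjusted p = 2.2e-05), Ms4a6b by 0.83 ± 0.08 (SE, adjusted p = 2.1e-05), and Ms4a2, the IgE receptor chain, changed by -2.15 ± 0.13 (SE, adjusted p = 7.1e-07). Ms4a3, a gene of granulocyte and monocyte progenitors, did not pass (0.24, adjusted p = 0.13). In the S100 family, S100a10 fell (-1.09 ± 0.12 SE, adjusted p = 3.9e-05) while S100a8 and S100a9 rose.

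**Figure D4:**
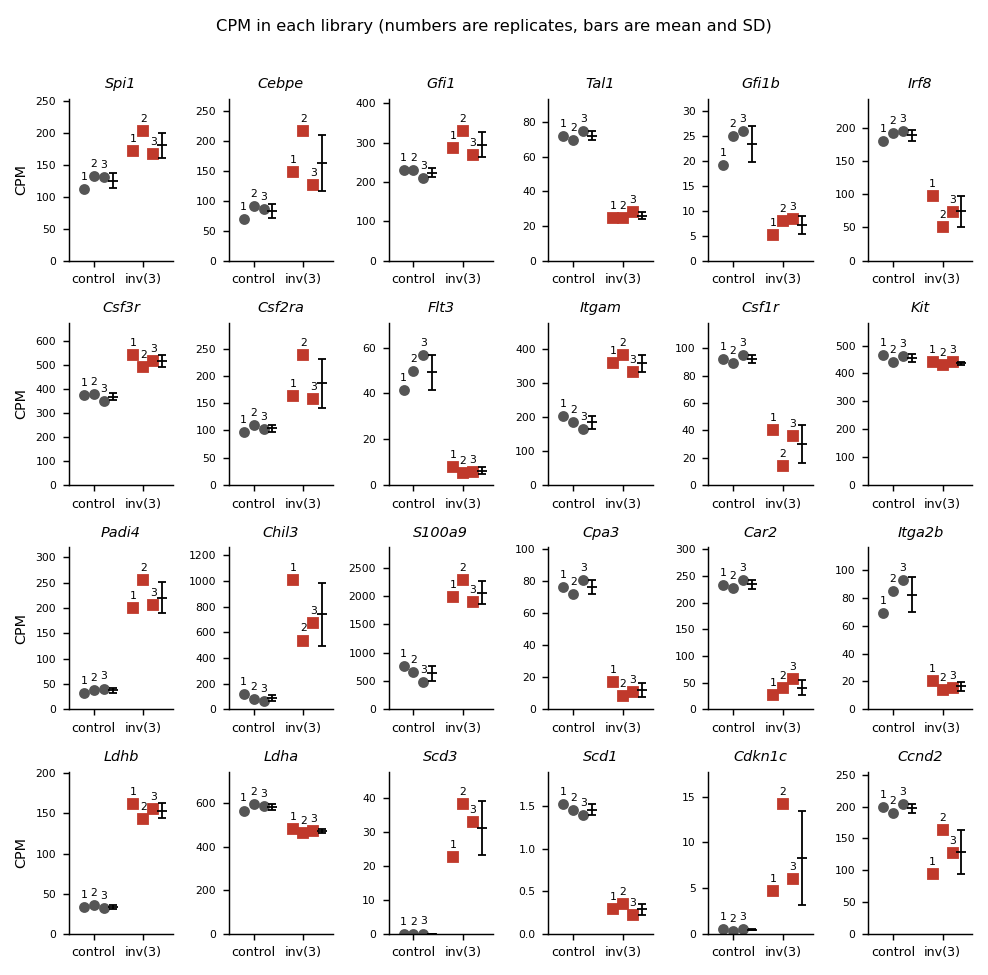
CPM of 24 genes in each control (circles) and inv(3) (squares) library, with replicate numbers and mean and SD (n = 3); each axis starts at 0. Groups are apart in every panel except Kit, and paralogs move in opposite directions (Gfi1 and Gfi1b, Ldhb and Ldha, Scd3 and Scd1). The genes were picked with their values known, and 6850 of all 13252 tested autosomal genes had groups that did not overlap.

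Isozymes of metabolism also moved in opposite directions. Ldhb, the heart-type lactate dehydrogenase subunit, was at 32.9, 36.4 and 31.6 CPM in the control libraries and 161, 143 and 156 in the inv(3) libraries (2.19 ± 0.10 SE, adjusted p = 7.3e-08), while Ldha, the muscle-type subunit, was at 567, 596 and 587 against 482, 465 and 471 CPM (-0.30 ± 0.04 SE, adjusted p = 0.00017). Among glycolysis genes 11 of 23 rose and 4 fell, with Hk3, the hexokinase of myeloid cells, at 0.62 ± 0.08 (SE, adjusted p = 0.00013), Pkm at 0.49 ± 0.06 (SE, adjusted p = 8.2e-05) and the glucose transporter Slc2a3 at -0.71 ± 0.09 (SE, adjusted p = 0.00012). The list took 9769 to 10526 CPM in control and 12032 to 12395 in inv(3), summed over its tested members. Stearoyl-CoA desaturases, which make monounsaturated fatty acids, divided too. Scd3 was at 0, 0.0126 and 0.0739 CPM in control and 22.5, 38.1 and 32.9 in inv(3), and Scd1 was at 1.52, 1.45 and 1.39 against 0.289, 0.344 and 0.222. Scd2 was at 489, 478 and 449.8 CPM in the control libraries and 554, 583 and 501 in the inv(3) libraries (0.21 ± 0.06 SE, adjusted p = 0.012), a call that ended without inv(3) replicate 2 (adjusted p = 0.052). Acacb, the mitochondrial acetyl-CoA carboxylase, rose by 2.25 ± 0.16 (SE, adjusted p = 2.2e-06). Cholesterol synthesis genes rose in 6 and fell in 6 of 22 cases. Of the 18 serine synthesis and ATF4 genes 3 rose and 4 fell, and Cbs, which directs homocysteine to cysteine, rose by 3.72 ± 0.34 (SE, adjusted p = 9e-06).

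The S phase list and the G2 and mitosis list had medians near that of all genes. Of 40 S phase genes 11 fell and 1 rose, with a median of -0.06, and Mcm3, part of the replicative helicase, changed by -0.17 ± 0.04 (SE, adjusted p = 0.0031). Of 27 genes of G2 and mitosis 7 rose and 0 fell, with a median of 0.08, and Mki67 overlapped between groups (0.02, adjusted p = 0.86). The G2 count was 3 or 4 without control replicate 2, control replicate 3 or inv(3) replicate 2, and the S phase count 7 without control replicate 3. D-type cyclins differed: Ccnd1 rose by 0.93 ± 0.19 (SE, adjusted p = 0.0029) and Ccnd2 changed by -0.62 ± 0.15 (SE, adjusted p = 0.0075). Of the inhibitors of cyclin-dependent kinases, Cdkn2c rose by 0.85 ± 0.10 (SE, adjusted p = 4.6e-05), Cdkn1c rose as given above, and Cdkn1a, a p53 target, overlapped (0.11, adjusted p = 0.62). In the MYC and ribosome biogenesis list 17 of 27 fell and 0 rose, with a median of -0.19: Odc1, the first enzyme of polyamine synthesis, changed by -0.36 ± 0.05 (SE, adjusted p = 0.00013) and the nucleolar gene Npm1 by -0.24 ± 0.05 (SE, adjusted p = 0.0028). Ribosomal protein genes rose in 2 and fell in 3 of 76 cases, and 1 to 12 were called with 1 library left out (1 without inv(3) replicate 2, 12 without inv(3) replicate 1).

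Of 27 tested BCL2 family members and p53 targets, a list with both pro- and anti-apoptotic genes, 12 rose and 3 fell. Bcl2 itself, the founding anti-apoptotic member, changed by -0.67 ± 0.09 (SE, adjusted p = 0.00021). Bcl2a1b, of a duplicated anti-apoptotic gene whose copies are hard to separate, rose by 1.69 ± 0.24 (SE, adjusted p = 0.0002). The pro-apoptotic members Bmf and Pmaip1 rose by 1.22 ± 0.11 (SE, adjusted p = 1.3e-05) and 1.52 ± 0.22 (SE, adjusted p = 0.00024), and Perp, a p53-induced membrane protein, by 2.39 ± 0.31 (SE, adjusted p = 0.00012). Trp53 was not called (0.02, adjusted p = 0.78).

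Of 40 tested interferon-response genes 21 rose and 3 fell, with a median of 0.33, in mice that all received pIpC. Oas1g, an antiviral synthetase, was at 4.24, 3.05 and 2.89 CPM in the control libraries and 21.7, 23.9 and 16.5 in the inv(3) libraries (2.61 ± 0.17 SE, adjusted p = 9.8e-07), and Ifi27 rose by 0.72 ± 0.07 (SE, adjusted p = 1.1e-05). Pattern recognition receptors divided, with 6 of 24 higher and 9 lower: Clec12a, an inhibitory lectin of myeloid cells, rose by 0.64 ± 0.11 (SE, adjusted p = 0.00086), whereas Tlr6 and Clec4e, which sense bacterial lipids, changed by -1.04 ± 0.13 (SE, adjusted p = 6.6e-05) and -1.18 ± 0.16 (SE, adjusted p = 0.00014).

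In the TGF-beta, Notch and Wnt list 6 of 26 rose (23.1%) and 8 fell (30.8%), against 18.4% and 20.1% of all tested autosomal genes. The BMP-responsive genes Id1 and Smad6 rose by 1.70 ± 0.26 (SE, adjusted p = 0.00031) and 1.88 ± 0.27 (SE, adjusted p = 0.00022), and Tgfbi, a matrix protein induced by TGF-beta, by 1.09 ± 0.14 (SE, adjusted p = 0.00011). Jag1, a Notch ligand, changed by -2.42 ± 0.33 (SE, adjusted p = 0.00018). Of 26 epigenetic regulators mutated in myeloid neoplasia 3 rose and 3 fell (11.5% each), both under the shares of all genes. Tet1, a 5-methylcytosine dioxygenase, was at 40.0, 36.3 and 36.0 CPM in the control libraries and 18.8, 8.89 and 15.8 in the inv(3) libraries (-1.37 ± 0.22 SE, adjusted p = 0.00061). Idh1, which makes the 2-oxoglutarate that dioxygenases such as Tet1 use, rose by 0.37 ± 0.06 (SE, adjusted p = 0.00047). The DNA methyltransferase Dnmt3a rose by 0.30 ± 0.05 (SE, adjusted p = 0.0011).

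Among autosomal genes called with a mean of at least 2 CPM over the 6 libraries and no overlap between groups, predicted genes aside, the 12 largest rises included Scd3 and Olfm4, given above, and several genes known from other tissues. Npy, a neuropeptide, was at 0, 0.0252 and 0.0123 CPM in control and 7.29, 6.98 and 9.66 in inv(3). Strc, known from the inner ear, was at 0.157, 0.202 and 0.148 against 8.17, 18.4 and 15.7 CPM, and Tdrd9, a germline RNA helicase, at 0.0393, 0.189 and 0.148 against 3.82, 12.3 and 4.08. Plekhh2, a cytoskeletal adaptor, was at 0.917, 0.756 and 0.603 CPM in the control libraries and 21.7, 26.0 and 24.7 in the inv(3) libraries (4.99 ± 0.14 SE, adjusted p = 6.7e-10). Ly6k, Ptprk, Dmrtb1 and Chil1 followed, with log2 changes of 5.33, 4.63, 4.34 and 4.49, and the globin copies Hbb-bt and Hbb-b2, which share reads, had 4.49 each. Igf2bp3, a fetal RNA-binding protein, did not pass the low-count filter and was not tested. It had 2, 2 and 5 counts in control and 1, 1984 and 713 in inv(3), so it was present in replicates 2 and 3 and not above control in replicate 1. This gene was named after its values were seen.

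The 12 largest falls are given under the same limits, which leave out genes of lower level such as Capn11, a calpain named after its values were seen (633 counts over the control libraries and 2 over the inv(3) libraries). Myh10, a nonmuscle myosin, was at 21.7, 19.3 and 22.0 CPM in the control libraries and 0.972, 0.234 and 1.22 in the inv(3) libraries, and Tfpi, the inhibitor of tissue factor, at 22.0, 20.4 and 19.8 against 0.932, 0.468 and 1.10 CPM. Serpinf1, a secreted serpin, changed by -4.67 ± 0.31 (SE, adjusted p = 1.3e-06) and Prss34, a basophil protease, by -5.11 ± 0.61 (SE, adjusted p = 0.0001). Tmem184c (-4.70), Fut10 (-4.71), Rhoj (-4.31), Ppic (-4.61), Sncaip (-4.52), Psma8 (-5.00) and Rps4l (-4.84), a ribosomal protein gene copy whose reads may be shared, complete the set with Gng11. In 11 of these 12 genes replicate 2 was the lowest inv(3) library, and in Psma8 it was replicate 1.

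The double group against Sf3b1 K700E gives the same allele difference in 6 other libraries that all hold Y-linked RNA. Xist RNA still set these groups apart. Double libraries held 23.2 to 40.5 CPM, whereas Sf3b1 K700E values began at 77.1 and reached 209.7 CPM. Whether this Xist difference bears on the calls was not tested. With the double group set against Sf3b1 K700E, 3407 autosomal genes (25.7%) were called higher and 3109 (23.5%) lower. Of the 2436 genes higher in inv(3) against control, 2033 (83.5%) were also called higher there and 13 lower, and of the 2666 lower, 2054 (77.0%) were also called lower and 4 higher. The shared calls were 59.7% of the 3407 and 66.1% of the 3109. Spi1 changed there by 0.59 ± 0.10 and Cebpe by 0.77 ± 0.19, Tal1 by -1.48 ± 0.12, Csf3r by 0.71 ± 0.07, Ldhb by 2.92 ± 0.10 and Scd3 by 9.41 ± 0.40. Late neutrophil genes rose in 18 and fell in 3 of 32 cases, erythroid genes rose in 1 and fell in 27 of 29, and stem cell genes rose in 6 and fell in 21 of 34. G2 and mitosis genes rose in 0 and fell in 12 of 27 cases there. A test of the difference between the 2 contrasts called 104 of the 13252 autosomal genes.

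**Figure D5:**
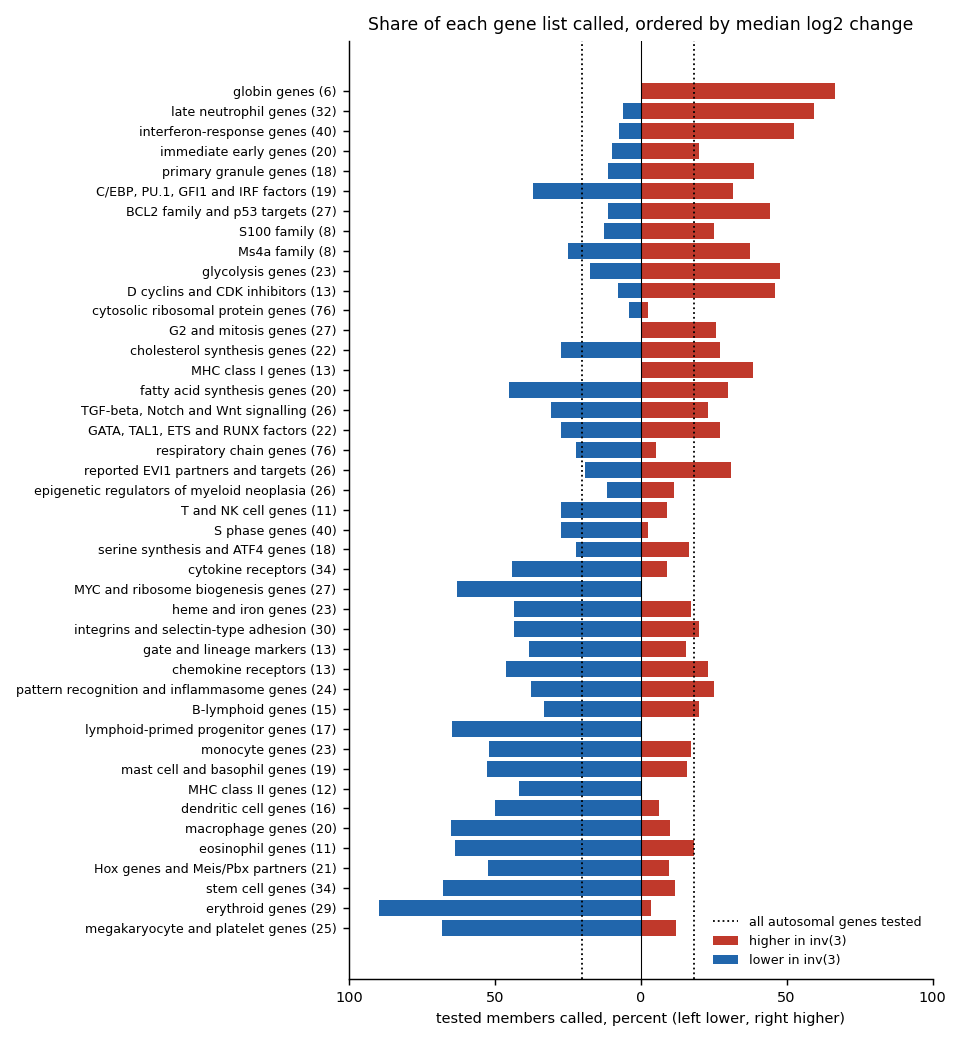
For each of 43 gene lists, with the number of tested members in brackets, the percent called higher (red, to the right) and lower (blue, to the left) in inv(3) against control; dotted lines mark the shares over all tested autosomal genes, 18.4% higher and 20.1% lower. Erythroid genes have the largest blue share (26 of 29) and late neutrophil genes a large red one (19 of 32), and a share near the dotted line is that of any gene.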

How the data were processed

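Poly(A) RNA libraries were unstranded, so overlapping antisense genes cannot be separated. The deposited expected counts and TPM are the estimated counts and length-corrected levels of a gene table with the columns of RSEM, per the file headers. The build mm10 and bcl2fastq are named in the submitters' processing notes, and an aligner was not given in the sources used here. For testing, these values were rounded, filtered by expression in each group (filterByExpr) and TMM-scaled. They were fitted with edgeR 4.0.16 (robust quasi-likelihood, R 4.3.3) over 12 libraries in 4 groups, and inv(3) minus control was tested with Benjamini-Hochberg adjustment over 13755 genes at 0.05. CPM values are TMM-scaled. Of the listed genes, 49 had no chromosome found. Alternatives included limma 3.58.1 and DESeq2 1.42.0.

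The lists and the members shown were chosen with earlier results of these data known. Named genes were Mecom, Gata2, Rpn1 and Sf3b1; the 12 largest rises and falls with at least 2 CPM and no overlap; up to 4 members of each list by p and 2 by CPM; all members of lists of at most 16; the 12 highest by TPM; and the 8 widest spreads in each group with at least 5 CPM. Other list members were named after their values were seen. On simulated data for inv(3) against control over 13755 genes, 85.3%, 76.5% and 48.5% of changes of -2, -1 and -0.5 (log2) were recovered, as were 63.6%, 66.7% and 90.9% of changes of 0.5, 1 and 2. In that order 29, 26, 16, 21, 22 and 30 genes were recovered, with 14 unchanged genes called over all sizes. Only 33 or 34 genes were changed at each size, far fewer than the 5102 called in the data. The adjustment is stricter when few genes change, so these shares do not describe the real comparison.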

Additional observations from a re-analysis of the deposited data

Results flagged for a closer look

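Of 358 genes considered by name, 9 differed between the inv(3) effect on the control background and that on the Sf3b1 K700E background, by edgeR's interaction term (the log2 change on Sf3b1 K700E minus that on control). Over all 13252 tested autosomal genes the same term called 104. Many of the 358 were named for their values in inv(3) against control, which enter the term, so the 2 counts cannot be compared. Il1rl1, which encodes ST2, the receptor for IL-33, changed by -3.83 on control and -5.41 on Sf3b1 K700E, an interaction of -1.57 (adjusted p = 0.00061). Hdc had -1.43 and -2.27, an interaction of -0.84 (adjusted p = 0.032), and Lpl, lipoprotein lipase, -1.57 and -3.05, an interaction of -1.49 (adjusted p = 0.035). Ms4a4b had 1.61 and 3.05, an interaction of 1.44 (adjusted p = 0.018), and Ldhb 2.19 and 2.92, an interaction of 0.73 (adjusted p = 0.031). In these 5 genes the direction was shared.

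In the other 4, a rise or a small change on control stood against a negative value on Sf3b1 K700E. Camp rose on control (1.74) and had -0.71 on Sf3b1 K700E, an interaction of -2.45 (adjusted p = 0.047). Of the globins, Hba-a1 had -0.26 and -3.40, an interaction of -3.15 (adjusted p = 0.0010), and Hbb-b1 had 1.30 and -1.92, an interaction of -3.22 (adjusted p = 0.023). Hba-a2 had an interaction of -11.25 (adjusted p = 0.011), a fitted value with 0 counts in control, so it is no measure of size. Globin copies share reads, and RSEM's division of them was not tested.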

How the results depend on the processing

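Over 17 alternatives none of the 252 named genes called reversed its sign, and of the 193 tested under each of them 170 stayed called throughout. Of the 106 named genes not called, 31 changed sign under at least 1 alternative. With a mean of at least 5 CPM, 442 genes changed at least 2-fold, against 1634. Leaving out 1 library gave 4178 to 4774 autosomal calls (5102 in all libraries), 1508 to 1749 at 2-fold and 391 to 464 of the list members (457). The other alternatives gave 3522 to 5428 autosomal calls. Replicate numbers did not pair the libraries (correlations of deviations for equal numbers -0.0455, 0.00684 and 0.0166). A fit of the 6 libraries alone gave 4384 calls, 1421 at 2-fold and 426 list members. A replicate block gave 4634 calls, 1607 at 2-fold and 438 list members, and with only the 6 libraries 3967, 1356 and 409. Under the latter fit Ccnd2 (adjusted p = 0.052), Pknox1 (0.054), Dntt (0.067) and Ermap (0.11) were not called. Of the 43 lists, 26 kept their count within 1.5 times under every alternative, and 38 did so without inv(3) replicate 2. Depth limits genes near 0, where a fold rests on a few counts. Xist and Y-linked RNA differ between the groups throughout.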
